A study of Mus musculus with 7 samples.

Results

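The acid secretion machinery of the mouse stomach was described here through 9 genes, Atp4a, Atp4b, Kcnq1, Kcne2, Clic6, Slc4a2, Slc9a4, Car2 and Aqp4, taken by name from the 18907 features of the count tables. All 9 were present in each of the 7 tables. The study sorted living (DAPI-negative) single cells of dissociated gastric glands from wild-type C57BL/6 mice into 384-well plates and counted transcripts by SORT-seq, which uses CEL-seq2 chemistry and unique molecular identifiers (UMIs) and reads 3′ ends of transcripts. There were 4 plates from the corpus, the acid-producing body of the stomach, and 3 from the pylorus, its outlet. All groups shared this strain and genotype and had no treatment, and age is not given in the sources used here. The labels do not say which plates share an animal, so p-values over plates measure only the spread between these plates.

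A parietal cell secretes hydrochloric acid through a proton pump, the gastric H+/K+ ATPase, which exchanges cytoplasmic protons for luminal potassium. The potassium that the pump takes up is returned to the lumen through an apical channel, while chloride leaves beside it. Carbonic anhydrase supplies the protons and leaves bicarbonate, which is carried out across the basolateral membrane in exchange for chloride, and a basolateral sodium/proton exchanger and a water channel complete the set.

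Of 2688 wells, 2235 held at least 1000 UMIs without spike-ins and were kept as cells. Plates held 2646492 to 9511078 UMIs, and every plate used the same 384 well barcodes. Corpus 1, corpus 2 and pylorus 1 stood apart from the other plates: each kept 250 to 279 cells against 334 to 369, spike-ins took 4.27% of UMIs in corpus 1 and 6.55% in pylorus 1 against 0.256 to 0.426% elsewhere, and each held only 2 to 4 parietal-like cells. Results that rest on these plates are therefore given with and without them, the other plates (corpus 3, corpus 4, pylorus 2 and pylorus 3) being called the 4 similar plates.

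Parietal-like cells were found without the 9 genes, by clustering on the other features and naming clusters from marker lists that held no member. A single cluster of 139 cells took the name, with 15 parietal markers detected and 1810010D01Rik, Apoa1, Tnni3, Fabp3, Ckb and Esrrg among its leading genes. On the 4 similar plates the summed level of the 17 parietal markers in the tables was 3178 to 4146 CPM (UMI counts summed over the cells of a plate and class and scaled to a common total, here that of all UMIs) in these cells, against 381 to 844 CPM in the pit-like, neck-like and chief-like classes. Since these markers named the cluster, a high sum is no independent support. Cckbr and Rab27b went the other way, with means over the 4 similar plates of 5.67 and 125.5 CPM in parietal-like cells against 18.1 and 170 CPM in other cells. The same 139 cells formed the cluster when the 9 genes were put back and when the clustering was made finer. They numbered 3, 4, 56 and 42 in corpus 1 to 4 and 2, 12 and 20 in pylorus 1 to 3. Their median depth was 35642 UMIs, but that of the 4 cells of corpus 2 was 2116 UMIs.

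Parietal-like cells made up 1.08, 1.43, 15.5 and 12.6% of kept cells in corpus 1 to 4 and 0.8, 3.30 and 5.42% in pylorus 1 to 3. The plates of the regions overlapped, because corpus 1 and corpus 2 held about as few as pylorus 1. The mean share was 7.65% ± 7.48 (SD, n = 4) in the corpus and 3.17% ± 2.31 (SD, n = 3) in the pylorus, and the difference of -4.48 percentage points was smaller than the SD of the corpus plates (permutation test, exact and two-sided, p = 0.457, the smallest p for this design being 0.0286). Which cells survive dissociation and sorting cannot be told apart from the tissue's own makeup.

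The promoter sequences of the pump's catalytic subunit and of the potassium channel's accessory subunit are shown because these were among the members with the highest levels in parietal-like cells relative to other cells. RefSeq promoter entries on build GRCm38.p6 were looked up for the members other than Aqp4. They matched 3 members, Atp4a, Kcne2 and Slc4a2, with 5 entries in all. The stretches are the 150 bases just before the annotated start, on the plus strand, at chr7:30712059-30712208 for Atp4a and chr16:92292239-92292388 for the more upstream of the Kcne2 starts.
Atp4a: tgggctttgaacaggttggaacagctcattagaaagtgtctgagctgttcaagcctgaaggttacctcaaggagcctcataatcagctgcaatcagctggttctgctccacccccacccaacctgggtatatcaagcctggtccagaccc
Kcne2: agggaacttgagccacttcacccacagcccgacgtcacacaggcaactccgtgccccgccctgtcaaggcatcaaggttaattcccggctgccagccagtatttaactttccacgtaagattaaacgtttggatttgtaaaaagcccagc
Both are in lower case throughout, since none of the motifs searched occurred. The motifs, read on both strands over 250 bases before to 50 after each start, were the TATA box with the letters TATAAA, the motif of GATA factors with AGATAA or, in its place, TGATAA, and the oestrogen-related receptor half-site with AAGGTCA. They occurred in 13.6%, 18.6% and 4.72% of 32851 RefSeq promoters of the same length and in none of the members' 5 windows, which says only that these letters are not in these windows.

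Atp4a, the catalytic alpha subunit that moves the ions, and Atp4b, the beta subunit that the pump needs for folding and trafficking, were detected in all 139 parietal-like cells. These cells were 6.22% of kept cells and held 10.6% of all UMIs, but they held 79.9% of the Atp4a UMIs and 83.1% of the Atp4b UMIs (95% Wilson interval 82.8 to 83.4%, covering counting error only). Within the 4 similar plates the share was 87.2 to 92.6% for Atp4a and 82.0 to 85.0% for Atp4b. Clusters were formed from the same cells, so these shares describe the cells and were not tested.

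The level of Atp4a in parietal-like cells was 3971 CPM in corpus 3, 3855 in corpus 4, 4366 in pylorus 2 and 4569 in pylorus 3, in CPM of all UMIs. Its level in all other cells of the same plates was 97.2, 79.5, 27.3 and 62.9 CPM, the last falling to 41.2 CPM without 1 proliferating-like cell that held 182 of 520 UMIs. Each parietal-like value was at least 40.8 times the value outside, and the mean ratio was 80.4 ± 54.6 (SD, n = 4 plates). For Atp4b the parietal-like levels were 10321, 9379, 10196 and 9961 CPM and the levels outside were 628, 378, 106 and 205 CPM, a mean ratio of 46.5 ± 35.9 (SD, n = 4 plates). Both subunits therefore varied little between plates inside the class and several-fold outside it, where Atp4b was highest on the plates with most parietal-like cells.

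**Figure D1:**
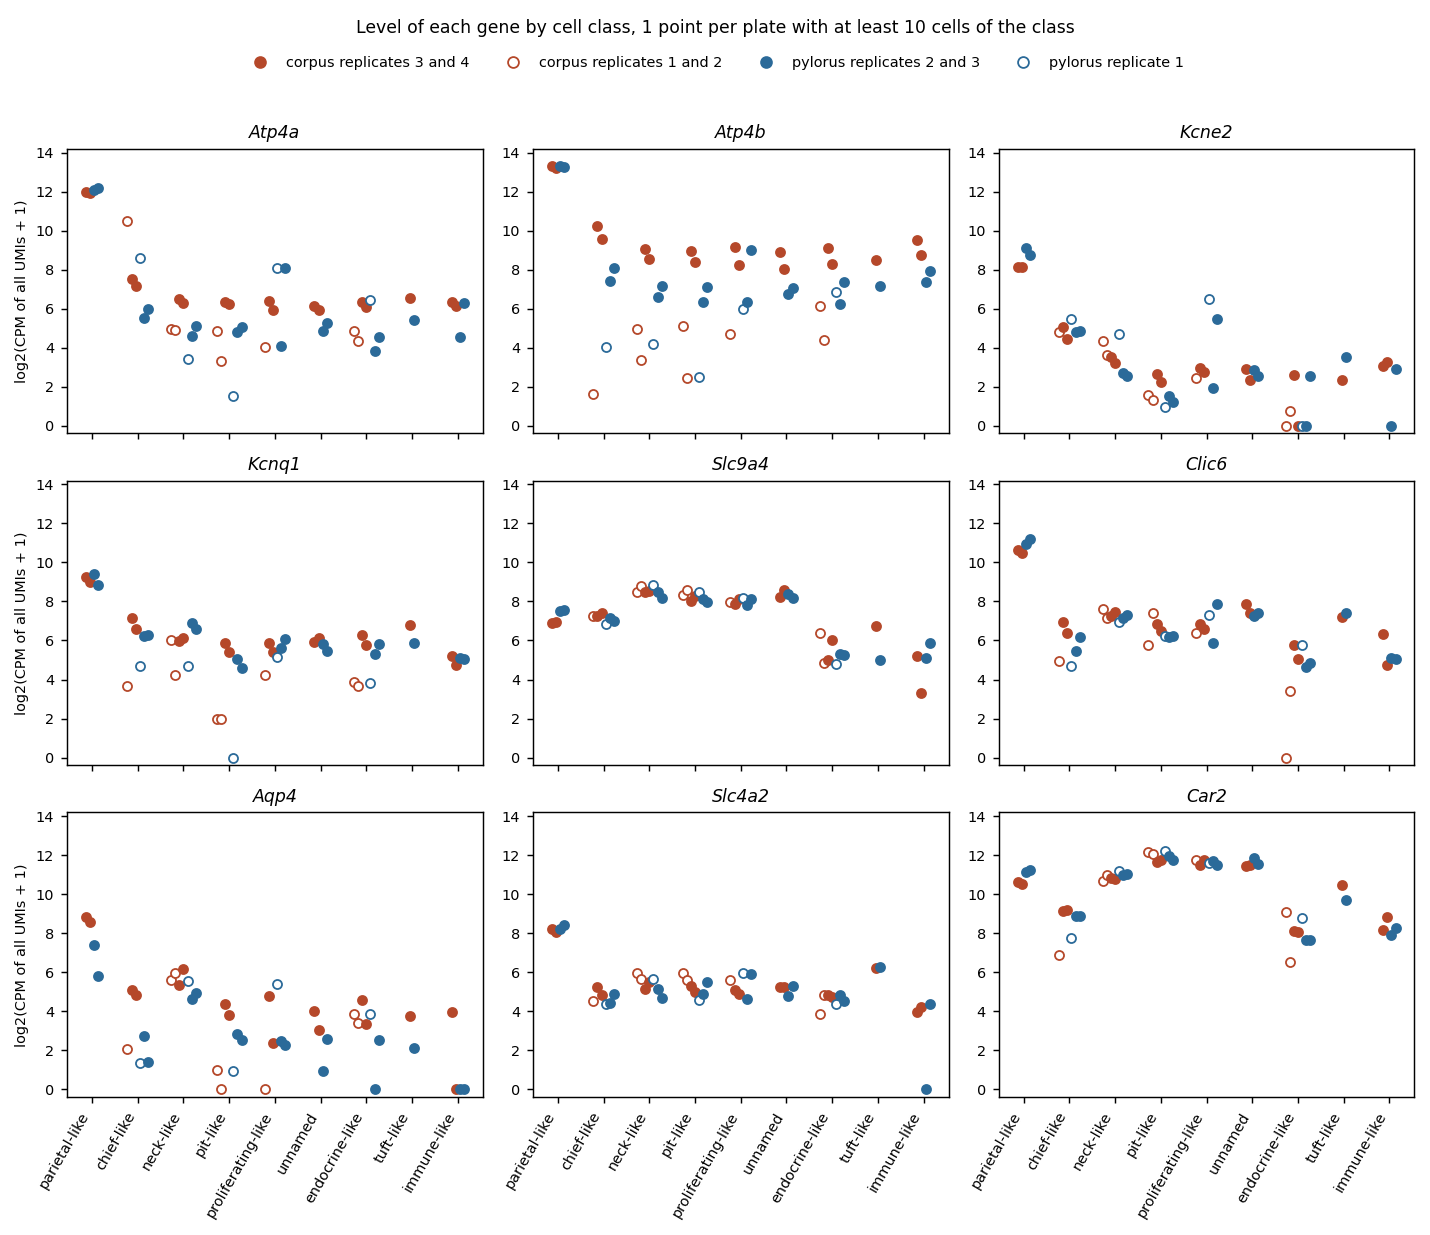
Level of each of the 9 genes, as log2(CPM of all UMIs + 1), by cell class, with 1 point per plate that held at least 10 cells of the class, in red for the corpus and blue for the pylorus and open for the plates that stood apart. Car2 and Slc9a4 reach their highest points in pit-like and neck-like cells, whereas each of the other genes has its highest point in parietal-like cells.

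Pump transcripts outside parietal-like cells were spread over every class. After each cell was thinned to 5000 UMIs, Atp4b was seen in 82.1% of 39 immune-like cells (76 shallower ones were left out) and Atp4a in 43.6%, although mast cells and other leukocytes should lack the pump. Without thinning the immune-like shares were 65.2% and 25.2% at a median of 3691 UMIs per cell. Atp4b was seen in 43.5% of thinned pit-like cells and 44.0% of thinned neck-like cells, below the immune-like share. These shares pool unlike plates: most immune-like cells came from the 4 similar plates, whereas many pit-like and neck-like cells came from the others. The source of the pump UMIs in these classes was not tested. On corpus 1, corpus 2 and pylorus 1, with 2 to 4 parietal-like cells each, the level of Atp4b outside the class was 30.9, 8.68 and 19.2 CPM, below the 106 to 628 CPM of the 4 similar plates.

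The balance between the subunits also differed inside and outside the class. In parietal-like cells there were 2.60 Atp4b UMIs per Atp4a UMI in corpus 3, 2.43 in corpus 4, 2.34 in pylorus 2 and 2.18 in pylorus 3. In the other cells of these plates the ratio was 6.46, 4.76, 3.87 and 3.26, higher than inside on each of the 4, and in pylorus 3 it was 4.10 without that proliferating-like cell. On corpus 1, where 3 parietal-like cells gave 947 Atp4a and 710 Atp4b UMIs, the ratio inside was 0.75. These ratios compare the counted 3′ ends of different transcripts and are not protein ratios. The reason for the higher ratio outside was not tested.

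**Figure D2:**
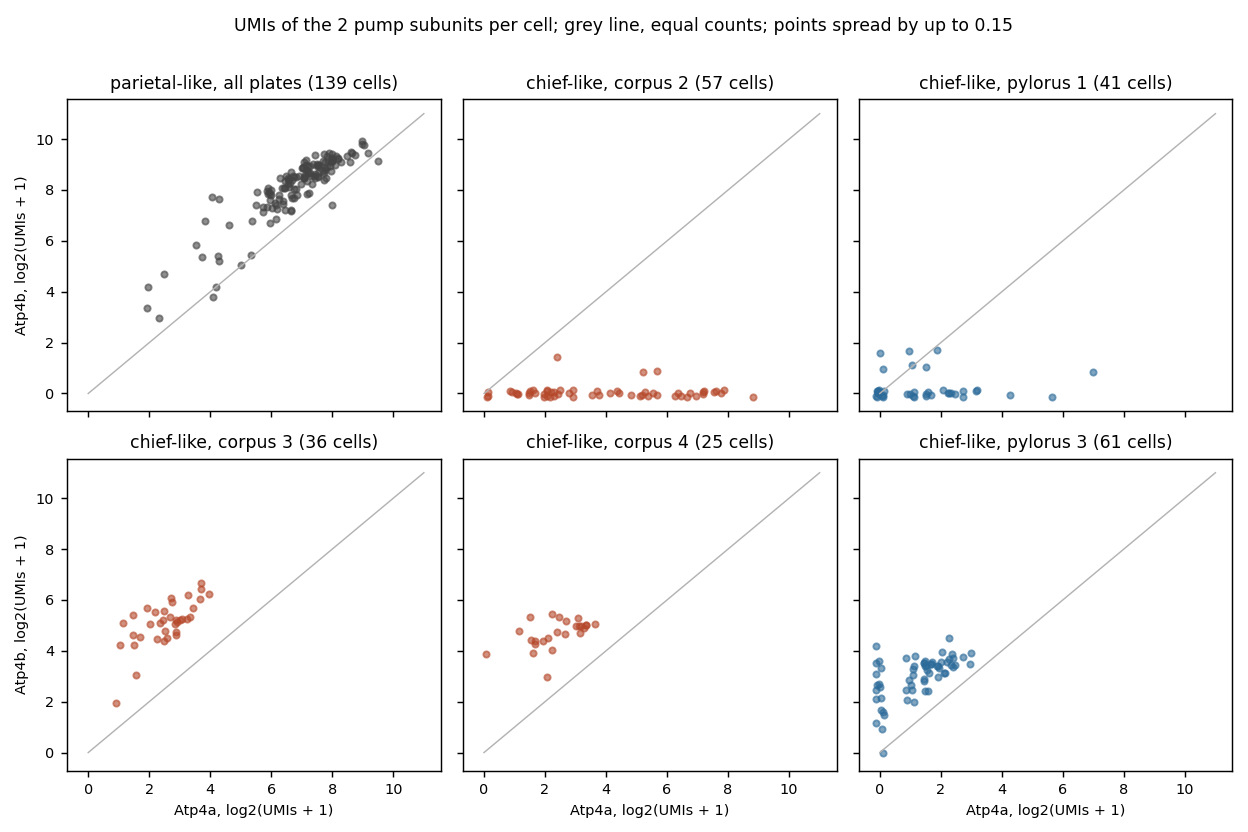
Atp4b against Atp4a in single cells, each as log2(UMIs + 1), for all 139 parietal-like cells and for the chief-like cells of 5 plates, with a grey line at equal counts. Most parietal-like cells lie above the line with both genes high, the chief-like cells of corpus 2 spread along the Atp4a axis with nearly no Atp4b, and those of corpus 3, corpus 4 and pylorus 3 lie above the line at low counts.

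Cells with Atp4a and nearly no Atp4b were chief-like, the pepsinogen-secreting cells of the gland base. With at least 20 Atp4a UMIs and at most 1 Atp4b UMI as the limit, chosen after the values were seen, there were 27 such wells, and all 27 were chief-like: 25 of the 57 chief-like cells of corpus 2, 2 of the 41 of pylorus 1 and none on the other plates. At limits of 10 and 40 Atp4a UMIs there were 33 and 21 wells. The chief-like cells of corpus 2 held 2753 Atp4a UMIs and 4 Atp4b UMIs, with up to 415 Atp4a UMIs in a cell, and their level was 1453 CPM of Atp4a against 2.11 CPM of Atp4b. Those of pylorus 1 held 251 and 10 UMIs. In corpus 3 the order was the opposite, with 212 Atp4a and 1417 Atp4b UMIs in 36 chief-like cells.

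With these cells included, Atp4a outside the parietal-like class was 482 CPM in corpus 2 and 119 CPM in pylorus 1. In the chief-like cells of corpus 2 the 17 parietal markers summed to 520 CPM with 4 of the 17 at 0, among them Slc26a7, Kcnj16 and Esrrb, against 570 CPM with none at 0 in the chief-like cells of corpus 3 and 3495 CPM in the parietal-like cells of corpus 3. Esrrg, an oestrogen-related receptor that marks parietal cells, was at 8.45 CPM there. Most chief-like cells of corpus 2 and pylorus 1 belonged to a different cluster (led by Pdia2, Chia and Gif) from most of those of the 4 similar plates (led by Furin, Nupr1 and Cryab). Both plates are among those that stood apart, and the part of the plate in this result was not tested.

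Kcnq1, the pore-forming subunit of the apical potassium channel, and Kcne2, the small accessory subunit that keeps this channel open in acid, differed in how far they were restricted. Kcne2 had 79.0% of its UMIs in parietal-like cells and Kcnq1 57.2%. After thinning to 5000 UMIs, Kcne2 was seen in 71.2% of 132 parietal-like cells and 0 of 39 immune-like cells (95% Wilson upper bound 8.97%). Kcnq1 was seen in 93.2% of the parietal-like and 15.4% of the immune-like cells. Kcnq1 overlaps the antisense transcript Kcnq1ot1, and the strand setting of the counting is not given in the sources used here, so the reads of both cannot be told apart with certainty.

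The level of Kcne2 in parietal-like cells was 275 CPM in corpus 3, 280 in corpus 4, 557 in pylorus 2 and 436 in pylorus 3, and both pylorus plates were above both corpus plates. The ratio of the parietal-like level to that of all other cells was 42.2 ± 19.1 (SD, n = 4 plates). For Kcnq1 the parietal-like levels were 610, 515, 685 and 458 CPM, with the corpus plates between the pylorus plates, and the ratio was 9.12 ± 1.43 (SD, n = 4 plates).

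Outside parietal-like cells Kcne2 had its next highest mean level in chief-like cells, at 29.7 CPM ± 7.65 (SD, n = 6 plates, range 20.8 to 43.2). Neck-like cells had 12.0 CPM ± 7.43 (SD, n = 7), overlapping the chief-like plates, and pit-like cells 2.35 CPM ± 1.55 (SD, n = 7) with no plate above 5.20 CPM, so the chief-like and pit-like plates did not overlap. Proliferating-like cells ranged from 2.77 to 88.7 CPM and are not placed in this order. At 5000 UMIs per cell Kcne2 was seen in 15.1% of chief-like and 0.680% of pit-like cells.

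Kcne2 UMIs were 2.68% of Atp4b UMIs in the chief-like cells of corpus 3 and 2.67% in its parietal-like cells, and 2.74% and 2.98% in corpus 4. In pylorus 2 the values were 15.8% in chief-like and 5.46% in parietal-like cells, and in pylorus 3 they were 10.5% and 4.38%. Chief-like Kcne2 was thus near the parietal-like proportion to Atp4b in corpus 3 and corpus 4 and above it in pylorus 2 and pylorus 3. In corpus 2 it was far above it, with 50 Kcne2 UMIs beside 4 of Atp4b in the chief-like cells, against 11.5% in the parietal-like cells.

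For Kcnq1 the levels outside were 84.9 CPM in tuft-like cells (2 plates), 70.6 CPM ± 47.7 in chief-like (SD, n = 6) and 64.8 CPM ± 35.6 in neck-like cells (SD, n = 7), which did not differ beyond their spread. Pit-like cells had 22.8 CPM ± 22.2 (SD, n = 7), ranging from 0.0 to 58.0 CPM. The level of Kcnq1 in all cells outside the class ran from 13.6 to 74.8 CPM over the plates.

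Clic6, a member of the chloride intracellular channel family, was at 1599 CPM in corpus 3, 1410 in corpus 4, 1961 in pylorus 2 and 2346 in pylorus 3 in parietal-like cells, which held 66.2% of its UMIs. By plate, over these 4 plates, that share was 58.8 to 78.3%. The ratio of the Clic6 level to that of other cells was 17.3 ± 6.18 (SD, n = 4 plates). Outside, its levels overlapped between these classes: 154 CPM ± 24.3 in neck-like (SD, n = 7), 124 CPM ± 62.4 in proliferating-like (SD, n = 6) and 91.7 CPM ± 39.4 in pit-like cells (SD, n = 7). Tuft-like cells had 156 CPM (2 plates), and every neck-like plate (121.5 to 195 CPM) was above every immune-like plate (26.2 to 79.9 CPM) and every endocrine-like plate (0.0 to 53.4 CPM). Thinned to 5000 UMIs, 99.2% of parietal-like cells had a Clic6 UMI, against 48.8% of neck-like and 12.8% of immune-like cells.

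Slc4a2, the anion exchanger AE2 that lets bicarbonate out in return for chloride, had 49.7% of its UMIs in parietal-like cells. By plate, over the 4 similar plates, this share of Slc4a2 was 39.4 to 71.2%. Its parietal-like levels were 295, 263, 298 and 340 CPM in corpus 3, corpus 4, pylorus 2 and pylorus 3, with a ratio to other cells of 8.88 ± 1.52 (SD, n = 4 plates). Tuft-like cells came next at 74.4 CPM in 1 corpus plate and 75.5 in 1 pylorus plate. The other named classes had means of 12.9 CPM (immune-like) to 42.9 CPM (neck-like). The neck-like, pit-like, proliferating-like and chief-like plates, from 20.1 to 61.5 CPM, overlapped, and the immune-like plates, from 0.0 to 19.5 CPM, lay below all of them.

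Slc9a4, the sodium/proton exchanger NHE4, was not restricted to parietal-like cells. Only 6.15% of its UMIs lay in parietal-like cells, less than the 10.6% of all UMIs these cells held, and 32.5% lay in pit-like and 26.0% in neck-like cells. Its parietal-like levels were 119, 121, 180 and 189 CPM on the 4 similar plates. The order of mean levels was neck-like 377 CPM ± 59.7 (SD, n = 7), pit-like 308 ± 51.6 (SD, n = 7), proliferating-like 259.9 ± 25.6 (SD, n = 6), parietal-like 152 ± 37.6 (SD, n = 4) and chief-like 143 ± 19.8 (SD, n = 6). The plates of pit-like cells overlapped those of both neighbours in this order, whereas those of neck-like cells (292 to 463 CPM) and proliferating-like cells (226 to 287 CPM) did not overlap. Parietal-like and chief-like plates overlapped. Endocrine-like cells, at 43.8 CPM, and immune-like cells, at 34.2 CPM, were lowest. The ratio of parietal-like to other cells was 0.642 ± 0.228 (SD, n = 4 plates).

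Car2, carbonic anhydrase 2, which makes protons and bicarbonate from carbon dioxide and water, was not restricted either. Its parietal-like levels were 1610, 1489, 2290 and 2450 CPM, but its ratio to other cells was 0.855 ± 0.237 (SD, n = 4 plates), and parietal-like cells held 8.56% of its UMIs against 45.3% for pit-like cells. Pit-like cells had 3972 CPM ± 578 (SD, n = 7) and proliferating-like cells 3218 ± 275 (SD, n = 6), above every parietal-like plate. Neck-like cells, at 1959 CPM ± 230.5 (SD, n = 7), could not be told from parietal-like cells, at 1960 ± 481 (SD, n = 4). Chief-like cells had 406 CPM, immune-like 326 CPM and endocrine-like 289.7 CPM, with overlapping plates. Part of the pit-like class was a cluster led by interferon-response genes such as Ifit1 and Isg15.

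Aqp4, a water channel of the basolateral membrane, had 72.3% of its UMIs in parietal-like cells and 15.3% in neck-like cells. By plate, over the 4 similar plates, the parietal-like share of Aqp4 was 42.6 to 84.7%. Its parietal-like levels were 461 CPM in corpus 3, 389 in corpus 4, 169.6 in pylorus 2 and 55.7 in pylorus 3. The corpus plates were both above the pylorus plates, and the pylorus plates differed from each other about 3-fold. Neck-like cells were next at 45.7 CPM ± 16.9 (SD, n = 7), and 13.4% of thinned neck-like cells had a UMI against 2.56% of immune-like cells.

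Within parietal-like cells the regions were compared by limma's moderated test over the 4 similar plates, which were the only plates with at least 10 such cells, on log2(CPM + 2) with TMM scaling, a scaling that sets the typical gene to no difference. A gene was called at a Benjamini-Hochberg adjusted p under 0.05 over 6860 genes, and 489 genes, or 7.13% of those tested, were called. Of the 9 members 1 was called, Aqp4. The members' values of the regions did not overlap for 8 of the 9, all but Kcnq1, but they did not overlap for 51.4% of all genes either. The members' median difference, pylorus minus corpus, was -0.13 on the log2 scale, and that of all genes was -0.02.

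Aqp4 was lower in the pylorus. Its TMM-scaled CPM was 505 in corpus 3, 445 in corpus 4, 159.6 in pylorus 2 and 47.3 in pylorus 3, and the difference was -2.42 ± 0.34 (SE) on the log2 scale (limma, adjusted p = 0.000459). The cells with an Aqp4 UMI numbered 50 of 56 in corpus 3, 35 of 42 in corpus 4, 8 of 12 in pylorus 2 and 9 of 20 in pylorus 3, at median depths of 39339, 34143, 37032 and 39487 UMIs per parietal-like cell. The median parietal-like cell held 17.5, 10, 4.5 and 0 Aqp4 UMIs on these plates. The size of the difference rested on which pylorus plate was used: it was -1.55 without pylorus 3 and -3.27 without pylorus 2.

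**Figure D3:**
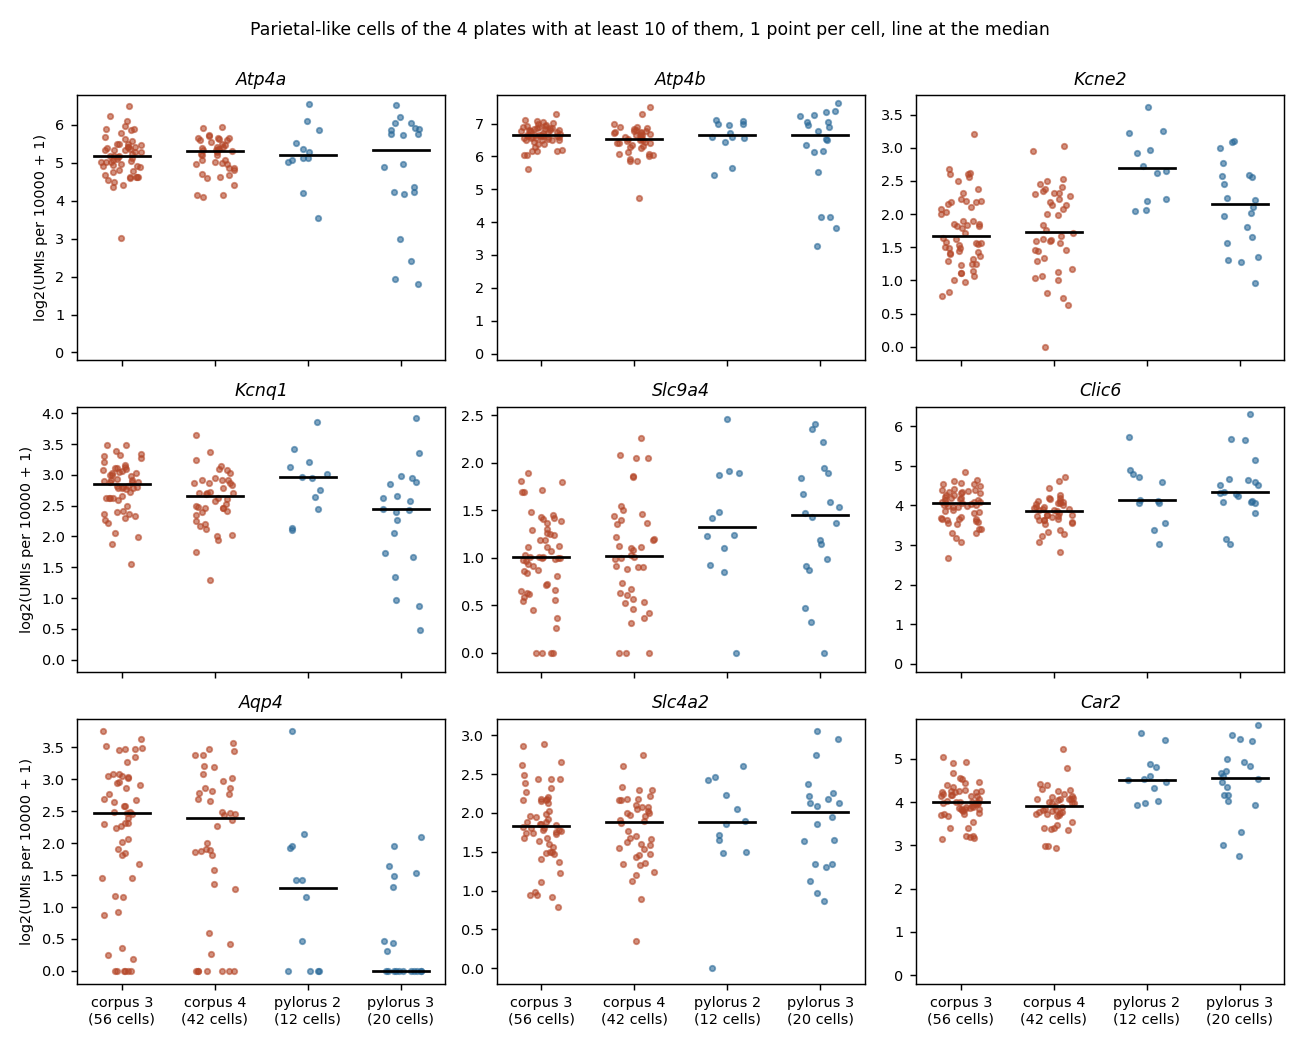
log2(UMIs per 10000 + 1) of the 9 genes in single parietal-like cells of the 4 similar plates, 1 point per cell, with a line at the median of each plate. Aqp4 is lower in both pylorus plates, and pylorus 3 holds 4 cells with low Atp4a and Atp4b.

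Kcne2 was at 301 and 319.9 TMM-scaled CPM in corpus 3 and 4 and at 524 and 371 in pylorus 2 and 3. Its difference of 0.50 ± 0.17 (SE, log2) did not pass (limma, adjusted p = 0.0852), but it passed with voom weights (0.48, adjusted p = 0.0329) and when scaled to all UMIs (0.82, adjusted p = 0.0033). It was 0.25 without pylorus 2 and 0.76 without pylorus 3, the latter past the threshold. The regional difference of Kcne2 thus depended on the processing.

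The pump subunits did not pass. TMM-scaled Atp4a was 4344, 4408, 4108 and 3881 CPM in corpus 3, corpus 4, pylorus 2 and pylorus 3, a difference of -0.13 ± 0.15 (SE, log2) with a 95% interval from -0.45 to 0.19. Atp4b was at 11293, 10726, 9592 and 8461 CPM, a difference of -0.29 ± 0.17 (SE, log2) with an interval from -0.65 to 0.07. For Atp4a, Atp4b and Slc4a2 (-0.13 ± 0.15) the sign turned when counts were scaled to all UMIs, to 0.19, 0.03 and 0.19.

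The other members also did not pass under TMM scaling. Kcnq1 differed by -0.32 ± 0.19 (SE, log2), Slc9a4 by 0.30 ± 0.17, Clic6 by 0.19 ± 0.14 and Car2 by 0.29 ± 0.14. Kcnq1 passed only without pylorus 2, at -0.69. These intervals leave room for differences in either direction for Kcnq1, Slc9a4, Clic6 and Car2.

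Scaling to all UMIs moved the median gene from -0.02 to 0.27 on the log2 scale and the split of called genes from 223 higher and 266 lower in the pylorus to 871 higher and 141 lower. Under it 5 members were called, where 14.8% of all genes were: Aqp4 was lower (-2.10) and Kcne2 (0.82), Car2 (0.61), Slc9a4 (0.61) and Clic6 (0.51) were higher. Mitochondrial transcripts, as a share of UMIs in parietal-like cells, were 38.5% in corpus 3 and 39.2% in corpus 4 against 31.2% in pylorus 2 and 27.5% in pylorus 3. Scaled to nuclear genes only, a setting chosen after these shares were seen, Aqp4 (-2.31) and Kcne2 (0.62, adjusted p = 0.0278) were called by limma, the median gene was at 0.08 and 350 genes were higher and 182 lower.

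**Figure D4:**
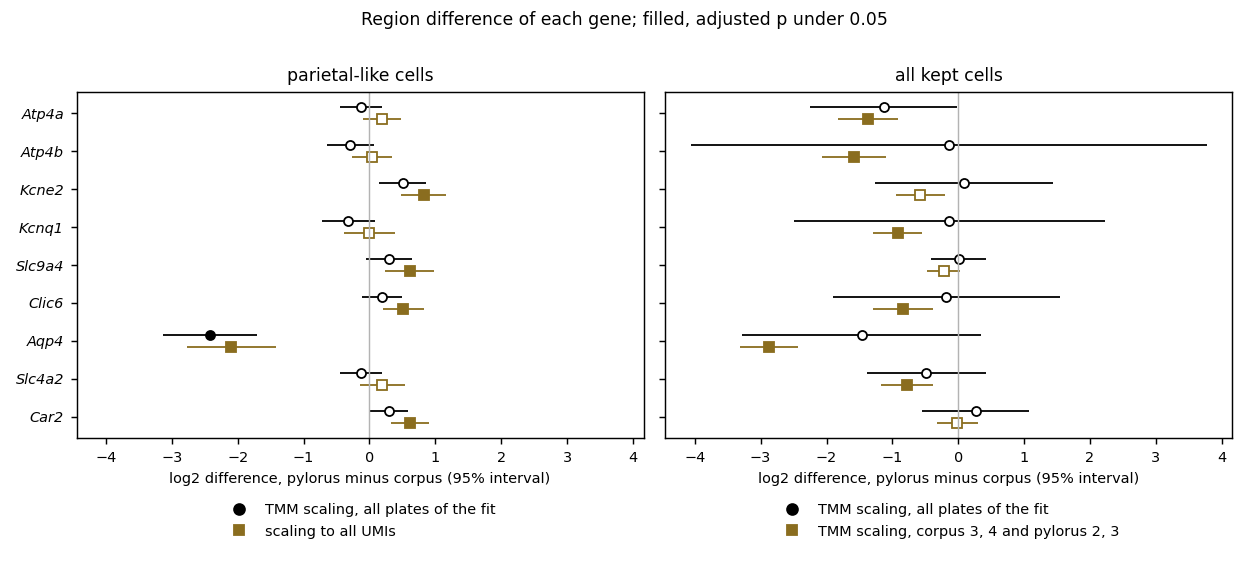
Difference between the regions (log2, pylorus minus corpus, with 95% intervals) for the 9 genes in parietal-like cells, at left, under TMM scaling (circles) and scaling to all UMIs (squares), and over all kept cells, at right, on all 7 plates (circles) and on the 4 similar plates (squares); filled symbols passed at an adjusted p under 0.05. Aqp4 lies at -2.42 in parietal-like cells, the signs of Atp4a, Atp4b and Slc4a2 there turn with the scaling, and 6 genes are filled at right on the 4 similar plates only.

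Over all kept cells, where fewer parietal-like cells and less RNA per cell cannot be told apart, none of the 9 members was called between regions on the 7 plates (limma, 2 of 12003 genes called, or 0.0167%). In the same fit 1 member, Atp4a, and 153 genes in all had an unadjusted p under 0.05. With voom weights none of the 9 was called either. Atp4a, as the mean over plates, was at 663 TMM-scaled CPM in the corpus and 293 in the pylorus, a difference of -1.13 ± 0.49 (SE, log2; limma, adjusted p = 0.99996). The values of the regions overlapped for all 9 members, as they did for all but 3.21% of genes.

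On the 4 similar plates alone 6 of the 9 members were called over all kept cells, against 3.62% of all genes, and all 6 were lower in the pylorus. They were Aqp4 (-2.88 on the log2 scale), Atp4b (-1.58), Atp4a (-1.37), Kcnq1 (-0.92), Clic6 (-0.83) and Slc4a2 (-0.77), the members with the larger shares of their UMIs in parietal-like cells apart from Kcne2. On the same plates parietal-like cells were 15.5 and 12.6% of the corpus cells and 3.30 and 5.42% of the pylorus cells. Their part in the result was not tested. The 4 similar plates were chosen partly by their number of parietal-like cells. The 6 calls are therefore no independent support for a regional difference. Kcne2, Slc9a4 and Car2 did not pass on these plates, at -0.57, -0.22 and -0.02.

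In cells outside the parietal-like class none of the 9 was called on the 7 plates (limma, 2 of 11860 genes called, or 0.0169%). 1 member, Aqp4, and 128 genes had an unadjusted p under 0.05, and no member was called with voom weights. The regions overlapped for all 9 members, as for all but 3.04% of genes. On the 4 similar plates 3 members were called, against 2.36% of all genes, and all were lower in the pylorus: Atp4b (-1.77), Aqp4 (-1.64) and Atp4a (-1.10). Over these 4 plates the levels of Atp4b and Atp4a outside the class rose with the share of parietal-like cells. That share also differed between the regions on these plates, which were chosen partly by their number of parietal-like cells. The part of that share in the result was not tested. In corpus 2, with 1.43% parietal-like cells, Atp4a outside the class was 482 CPM, above its level on each of the 4 plates.

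Single parietal-like cells varied in their pump transcripts. Per 10000 UMIs, Atp4a ran from 2.47 to 229 with a median of 37.7, and Atp4b from 8.57 to 199 with a median of 99.1, over 139 cells. Both were present in every cell at 3 or more UMIs for Atp4a and 6 or more for Atp4b. In pylorus 3, 4 of the 20 cells had fewer than 20 Atp4b UMIs per 10000, a limit chosen after the values were seen, and no parietal-like cell of another plate did.

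In these 4 cells Atp4a was at 2.47 to 6.95 and Atp4b at 8.57 to 16.8 per 10000, against medians of 53.0 and 121 in the other 16. Clic6 was at 16.1 to 77.6 and Car2 at 31.1 to 53.6, against medians of 18.6 and 20.3. Kcnq1 was at 0.39 to 4.39 and Kcne2 at 0.953 to 3.30, against medians of 5.06 and 4.11. The low Atp4b follows from the choice of these cells, and Atp4a went with Atp4b across the cells of this plate. Kcnq1 and Kcne2 lay below the other cells' medians in all 4, Car2 lay above its median, and Clic6 lay on both sides. The 4 cells held 10497 to 27335 UMIs. Without clustering labels, a rule of at least 40 UMIs of both subunits took 123 parietal-like cells and 1 cell outside the class, a proliferating-like cell of pylorus 3 with 182 Atp4a, 308 Atp4b, 29 Kcne2 and 98 Clic6 UMIs in 62631. It is not known whether that well held 1 cell or more.

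Across parietal-like cells of a plate, on log2 values that share library and depth, Atp4a and Atp4b had Pearson correlations of 0.65 in corpus 3 (56 cells), 0.48 in corpus 4 (42 cells), 0.40 in pylorus 2 (12 cells) and 0.90 in pylorus 3 (20 cells). Atp4a and Slc4a2 had 0.33 to 0.64 and Clic6 and Car2 0.19 to 0.86, positive on all 4 plates. Clic6 and Atp4b had 0.51, 0.38 and 0.58 on the first 3 plates and -0.64 in pylorus 3, the plate with the 4 cells of low pump level. These are descriptions over cells, which are not replicates.

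Over 47 sums of a plate and a class, on log2(CPM + 2), the genes whose levels were most like those of Atp4a among 7301 were Fabp12 (Pearson 0.80), Acadsb (0.79), Tmprss9, Pcp4l1 and Ckb (each 0.78). For Atp4b they were Tnni3 (0.92), 1810010D01Rik and Fabp3 (0.87), and Gmpr and Apoa1 (0.85). For Kcne2 they included Ldhb (0.79), Sgms2 (0.77), Cox7a1 (0.77) and Serf2 (0.76), and for Car2 they were Sult1c2, Pon2, Tfcp2l1 and Elovl7 (each 0.92) and Ezr (0.91). Among the members, over these sums, Atp4a was more like Kcne2 (0.83) than Atp4b (0.67), and Car2 was most like Slc9a4 (0.79). They include the chief-like cells of corpus 2 and pylorus 1, which held Atp4a with nearly no Atp4b. Across single parietal-like cells the mean correlation over the 4 similar plates was 0.60 for Atp4a with Atp4b and 0.20 for Atp4a with Kcne2. The sums share plates and classes and are not independent.

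A list of 50 other genes of acid secretion (receptors, transporters, membrane recruitment, transcription and fuel) was described in the same way. Of the 50, 15 were more than 2-fold higher in parietal-like than in other cells on each of the 4 similar plates, as were 2.61% of the 18359 features seen on these plates. By role these were 3 of 8 receptors and signalling genes, 4 of 17 other transporters and channels, 2 of 15 membrane recruitment genes, 2 of 5 transcription factors and 4 of 5 fuel genes. Slc26a9, a chloride transporter, was at 116 CPM in parietal-like and 2.82 CPM in other cells, and Esrrg at 771 and 26.0 CPM. Hrh2, the histamine receptor, was at 16.2 and 2.56 CPM and Kcnj16, a potassium channel, at 213 and 33.8 CPM, as means over 4 plates. All of the 15 except Sstr2 and Slc25a4 were also markers that named the class. Sstr2 was at 2.25 CPM in parietal-like and 0.738 CPM in other cells, and Slc25a4 at 398 and 48.3 CPM. The count of 15 and its split by role were therefore largely set by the choice of markers. Neither they, the comparison with 2.61% nor the levels of the markers are independent support.

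Between regions 40 of the 50 were tested in parietal-like cells and 7 were called by limma, where 7.13% of all genes were, with a median over the list of -0.08 against -0.02 for all genes. The direction depended on the scaling: 1 was higher in the pylorus and 6 were lower under TMM, but 9 were higher and 4 lower with scaling to all UMIs, with a median of 0.23. The values that follow are under TMM scaling. Car9, a cell surface carbonic anhydrase, was the only one called higher in the pylorus under this scaling: its TMM-scaled CPM was 25.4, 22.7, 83.9 and 86.9 in corpus 3, corpus 4, pylorus 2 and pylorus 3, a difference of 1.75 ± 0.23 (SE, log2; adjusted p = 0.000278). Car9 was not a gene of high level in these cells: its mean over the 4 similar plates was 58.6 CPM, against 263 CPM in other cells. Outside the class, over the 7 plates, its mean was 260 TMM-scaled CPM in the corpus and 434 in the pylorus, not called. Whether Car9 UMIs of other cells entered the parietal-like wells was not tested. Ppargc1a, a coactivator of mitochondrial genes, was lower in the pylorus, at 147, 145, 65.5 and 55.0 CPM (-1.25 ± 0.19, adjusted p = 0.000791). Slc26a7, a basolateral anion exchanger, was at 21.5, 17.0, 2.05 and 3.30 CPM (-2.19 ± 0.48, adjusted p = 0.0121).

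The other genes called were also lower in the pylorus. Chrm3, the muscarinic acetylcholine receptor of parietal cells, was at 21.0, 21.9, 4.09 and 6.60 CPM (-1.70), and Esrrb, an oestrogen-related receptor, at 14.7, 18.7, 0 and 4.4 CPM (-2.38). Myo6, an unconventional myosin (-0.65), and Rab11a, a small GTPase of the recycling membranes that carry the pump (-0.67), differed less. The pylorus levels of Slc26a7, Chrm3 and Esrrb rested on few UMIs in 12 and 20 cells. The sizes of their differences therefore depend on the 2 CPM added before taking logs. Over all kept cells and outside the class, 44 and 42 genes of the list were tested and 0 were called by limma on the 7 plates. On the 4 similar plates 13 of 45 were called over all kept cells, against 3.62% of all genes. Of the 13, 1 was higher and 12 were lower in the pylorus. Outside the class 4 of 42 were called on these plates, against 2.36% of all genes, 1 higher and 3 lower. These plates were chosen partly by their number of parietal-like cells. On the 7 plates, of the list's 4 most abundant genes, Gnas differed by 0.23 ± 0.23 (SE, log2) over all kept cells. Ezr differed by 0.29 ± 0.37, Atp1b1 by 0.08 ± 0.21 and Cdc42 by 0.09 ± 0.18. Outside the class these genes differed by 0.22, 0.37, 0.15 and 0.07.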

How the data were processed

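The authors deposited 1 table per plate of UMI counts, whole numbers for each gene in each well with no normalization, per the file headers and the values. The genome build was mm9 per the submitters' processing notes, and for the aligner and the counter no name is given in the sources used here. Spike-in rows were left out. The largest value was 4095, next to the 4096 possible UMI sequences of 6 bases, so counts of the most abundant genes may be too low. The largest count of a member in a cell was 1009. Wells with at least 1000 UMIs were kept. Single cells were sorted into the wells per the labels' protocols, and no doublet caller was run.

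Cells were clustered with scanpy 1.11.5 (counts scaled to 10000 per cell, 2000 variable genes without the 9 members, 30 principal components, 15 neighbours, Leiden resolution 1.0). A cluster took a name from the marker list with the highest mean log2 fold over other cells, if it had at least 3 detected markers and its leading genes did not go against the name. Levels are CPM of UMIs summed per plate and class, for plates with at least 10 cells of the class. Shares of cells were also computed after thinning to 5000 UMIs.

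Regions were compared with limma 3.58.1 (R 4.3.3, mean trend) on log2(TMM-scaled CPM + 2), where TMM trims 30% of log ratios and 5% of abundances, over genes that passed a filter of 10 counts, with Benjamini-Hochberg adjustment over all genes tested. All 9 members passed the filter in each comparison. Because well numbers serve as column names, the tables could not be checked as counts, so no count model was run and voom weights were tried instead. The fits were tested on simulated data. Plates were the replicates. The replicate numbers of the labels are not said to mark a shared animal or day.

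Members of the list of acid secretion genes were named if they passed in a fit (up to 8), or else its 4 most abundant were named; likeness took the 5 other genes with the highest correlation, among genes with a mean of at least 32 CPM in a class. One of these genes is not reported here. The members, the lists and the tests were chosen with earlier results of these data known.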

Additional observations from a re-analysis of the deposited data

Results flagged for a closer look

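In 45 groups of the 4 corpus plates (a gene in a class), 6 had a plate whose gap to the others was large for the whole range by Dixon's criterion, which chance alone meets in about 1 group in 20. Atp4a outside the parietal-like class was 482 CPM in corpus 2, against 30.2 to 97.2 CPM on the other corpus plates. Kcnq1 in neck-like cells was 18.0 CPM in corpus 2, against 62.7 to 69.6 CPM, and Slc9a4 in the same cells was 449.9 CPM there, against 353 to 367 CPM. Kcne2 in endocrine-like cells was 5.08 CPM in corpus 3, against 0.0 to 0.685 CPM, but this was 2 UMIs against 0 to 1. Slc4a2 was 13.7 CPM in the endocrine-like cells of corpus 1, against 25.7 to 28.1 CPM, and 55.8 CPM outside the parietal-like class of corpus 1, against 34.7 to 36.8 CPM. The endocrine-like cells of corpus 1 were shallow, with 2 Atp4a and 5 Atp4b UMIs in all, so the Slc4a2 level there also rested on very few UMIs. Of the 6 values, 5 came from corpus 1 or corpus 2, the corpus plates with few parietal-like cells.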

How the results depend on the processing

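Depth limits the low members: at 1000 UMIs per cell only 5 of the 9 could be tested in parietal-like cells, Aqp4 not among them, and few plates set the precision. The settings on nuclear genes and without chief-like cells were chosen after seeing the data. edgeR and DESeq2 were not run. In parietal-like cells the number of members called was 5 with scaling to all UMIs, 2 with voom weights or nuclear genes, 0 of 5 after thinning and 1 to 2 leaving out a plate at a time, where a lone plate is assumed to vary like the others; genes called numbered 489 as reported, 1012 with all UMIs, 30 after thinning and 145 to 1380 leaving out a plate. With all UMIs Atp4a turned to 0.19, Atp4b to 0.035 and Slc4a2 to 0.19, and Kcnq1 ran from -0.69 to 0.047 leaving out a plate.

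Over all kept cells 2 genes were called as reported, 0 without a filter or with voom weights, 1 after thinning, 434 (6 members) on the 4 similar plates and 0 to 2 leaving out a plate. Differences over all kept cells that turned were, after thinning to 1000 UMIs, Kcne2 (-1.08), Slc9a4 (-0.24) and Clic6 (0.043); on the 4 similar plates, Kcne2 (-0.57), Slc9a4 (-0.22) and Car2 (-0.017); with nuclear genes, Kcne2 (-0.012) and Slc9a4 (-0.11); and Slc9a4 with all UMIs (-0.036) and with UMI collisions corrected (-0.0081), and Atp4b from 3000 UMIs per well (0.15). Leaving out a plate gave -1.62 to 1.01 for Atp4b, -0.015 to 0.39 for Car2, -0.64 to 0.35 for Clic6, -0.35 to 0.53 for Kcne2, -0.80 to 0.70 for Kcnq1 and -0.13 to 0.14 for Slc9a4.

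Outside the parietal-like class 2 genes were called as reported, 1 with voom weights or after thinning, 278 (3 members) on the 4 similar plates and 0 to 3 leaving out a plate. Kcnq1 turned after thinning (-0.47), on the 4 similar plates (-0.26) and without chief-like cells (-0.0087), and Car2 on the 4 similar plates (-0.059). Leaving out a plate gave -1.31 to 0.74 for Atp4b, -0.045 to 0.38 for Car2, -0.29 to 0.080 for Clic6, -0.25 to 0.82 for Kcnq1 and -0.14 to 0.10 for Slc9a4. The cause of these changes was not tested.

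Plates with the same number in the corpus and the pylorus had correlations of deviations of 0.45, -0.11 and 0.47. Corpus 1 and pylorus 1 correlated best with each other, as did corpus 3 and pylorus 3, but corpus 2 did not correlate best with pylorus 2. Depth and quality of a plate also enter these correlations, so they cannot decide whether the numbers pair the plates. A fit with the replicate block called 1 gene over all kept cells and 0 outside the class, none of them a member; with it Atp4b (0.59), Kcnq1 (0.29) and Clic6 (0.10) turned over all kept cells, and Atp4b (0.46) and Slc9a4 (0.033) outside the class.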

Other observations

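Across the chief-like cells of a plate, the level of Atp4a (log2, per 10000 UMIs) was set beside that of genes chosen after their values were seen. For Cyp4v3, a fatty acid hydroxylase of the cytochrome family, the Pearson correlation with Atp4a was 0.70 in corpus 2 (57 cells) and 0.53 in pylorus 1 (41 cells), against 0.06 to 0.10 in corpus 3, pylorus 2 and pylorus 3. For Gif, the intrinsic factor gene that mouse chief cells express, it was 0.39 in corpus 2 and 0.44 in pylorus 1, against 0.16 to 0.22 on those 3 plates. For Pgc, a pepsinogen gene, it was -0.36 and -0.45, but also -0.49 in pylorus 3, -0.23 in corpus 3 and -0.12 in pylorus 2. The correlation with Tmem147 was -0.31 in corpus 2 and 0.23 in pylorus 1. These are descriptions over cells that share a plate and depth, with no test.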
